A study of Homo sapiens with 172 samples.

Results

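The 10 genes described here drive or mark the cell cycle: the cyclin genes CCND1, CCND2, CCND3, CCNE1, CCNA2 and CCNB1, the kinase genes CDK1, CDK4 and CDK6, and PCNA, which encodes the sliding clamp of the replication fork. The list was set by gene name, with earlier results of these data already known. Each was represented by every 100 kb bin that overlaps it in hg19, which gave 15 bins among 26414 bins with signal, and all 15 had signal. The measurement was DamID of the nuclear lamina in single cells. All 172 samples belong to 1 group, haploid (1N) KBM7 clone 5-5 cells with a Dam fusion to LaminB1. KBM7 is a near-haploid human leukaemia line, the clone is a single one, and no separate cultures or second condition are named. Dam was switched on for 15 h with 0.5 nM Shield1, and the smallest 2% of cells that carried both Fucci reporters, which mark cell cycle phase, were sorted singly. The table has 168 columns, and every column matched best the column 86 numbers away. These pairs were averaged, which gave 84 cells.

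Cyclins are short-lived proteins that switch on cyclin-dependent kinases. The D-type cyclins work with CDK4 and CDK6 to phosphorylate the RB protein and start the cycle, cyclin E acts at the start of DNA replication, cyclin A during replication and into G2, and cyclin B with CDK1 drives mitosis. The lamina lines the inside of the nuclear envelope, and DNA lying on it is known to be poor in active genes. Dam methylates the A in GATC, so DNA that came near the lamina during the induction is marked. Each value is a ratio of observed over expected reads. A gene was taken to touch the lamina in a cell where the mean ratio of its bins was at least 1, and its contact frequency is the percent of the 84 cells with contact.

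Most of the 10 genes were rarely at the lamina. Of the 10, 8 touched it in under 5% of cells, a class that holds 36.7% of all bins, and 4 did so in no cell, a class with 6.19% of bins. Genes of several bins were called on a mean, which single bins were not. Taken singly, 13 of the 15 gene bins were under 5% and 4 were in contact in no cell. With contact in any bin of a gene enough, CCND3 and CDK6 each had 5.95% and 6 members were under 5%. No member reached 50%, as 30.7% of bins did. The median frequency was 1.79% over the genes and 16.7% over all bins. Counted as single values, 33 of 840 gene-by-cell readings were contacts (3.93%), against 27.8% of all bin-by-cell readings. CDK1 gave 20 of these 33 contacts and CCNA2 gave 6. The expectation behind the ratios was worked back from them on a relative scale, with the smallest bin set to 1, and is not a number of reads. It ran from 253 to 423 in the 15 bins, with a median of 328, against 316 over all bins.

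**Figure D1:**
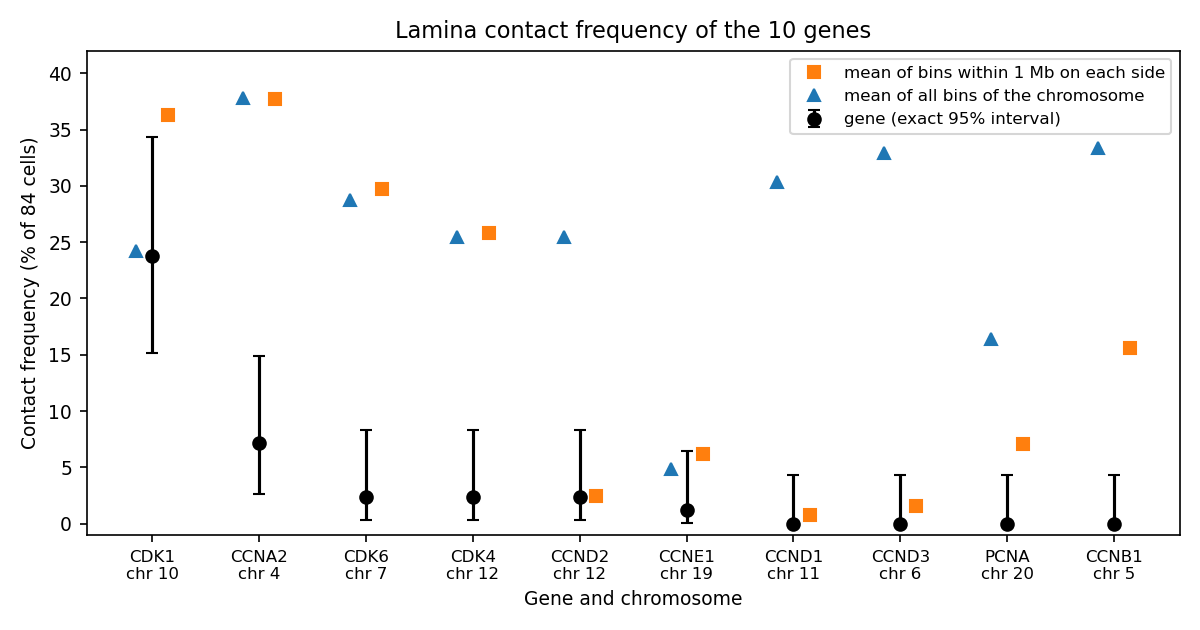
Contact frequency (percent of 84 cells) of each gene with its exact 95% interval (black), the mean of the bins within 1 Mb on each side (orange squares) and the mean of all bins on its chromosome (blue triangles). CDK1 stands highest at 23.8%, CCNA2 follows at 7.14%, and the other 8 genes lie at 2.38% or below.

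In the order of the levels, CDK1 came first at 23.8%, CCNA2 next at 7.14%, then CDK6, CDK4 and CCND2, each at 2.38%, and CCNE1 at 1.19%. CCND1, CCND3, PCNA and CCNB1 were at 0 of 84 cells, with an exact 95% interval that reaches up to 4.30%. In the lower-numbered and higher-numbered columns taken singly, CCND1 was in contact in 3 and 0 cells and CCND3 in 0 and 2. PCNA and CCNB1 were at 0 in both. The exact 95% intervals of CDK1 (15.2 to 34.3%) and CCNA2 (2.67 to 14.9%) did not overlap. The interval of CCNA2 overlapped with that of every gene below it, so the intervals do not resolve the lower part of the order. They leave out that all genes were read in the same 84 cells. Cells with contact of only 1 of 2 genes numbered 6 for CCNA2 and 0 for CCND1, and 6 for CCNA2 and 2 for CDK4. The order was not tested. These intervals cover counting error only, and cells of 1 clone are not replicates, so no p-value was made.

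**Figure D2:**
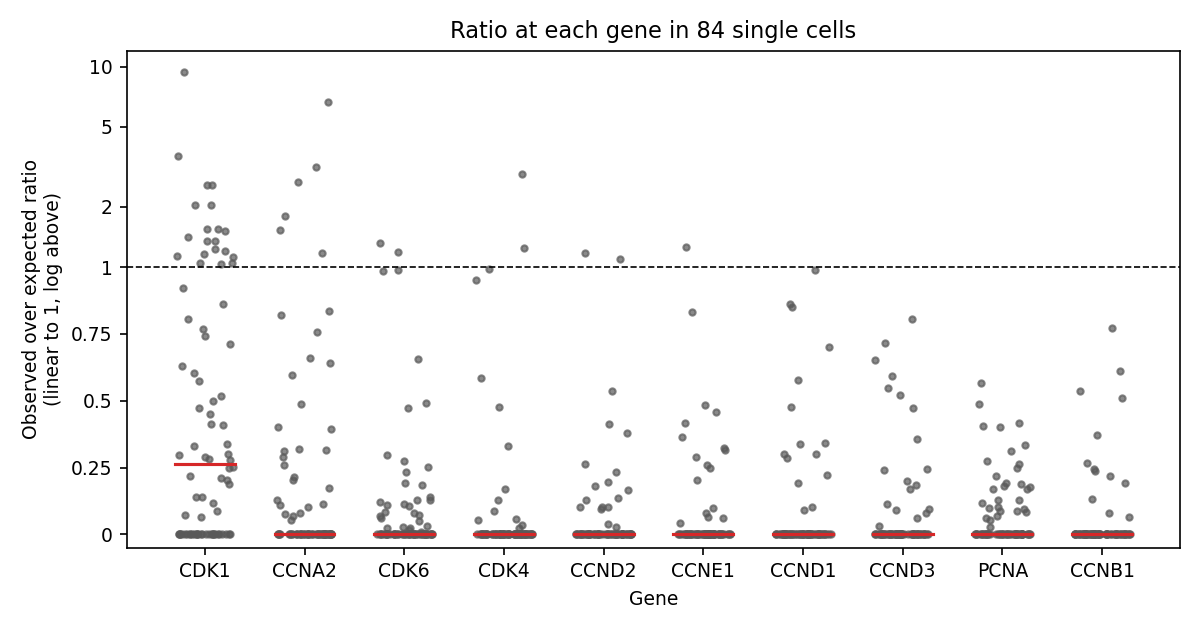
Observed over expected ratio at each gene, with 1 point per cell (84 cells), the median as a red line and the contact limit of 1 dashed; the axis is linear up to 1 and logarithmic above. Only CDK1 has a median above 0, at 0.26, and its highest cell reaches 9.37.

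The D-type cyclin genes sat in wide stretches that hardly met the lamina. At CCND1 (chromosome 11, 69.45 to 69.47 Mb) the ratio was 0 in the lowest and in the median cell and 0.99 in the highest, just under the limit. In all, 69 of 84 cells had no read there. CCND2 (chromosome 12, 4.38 to 4.42 Mb) had a lowest and median ratio of 0 and a highest of 1.17, with contact in 2 cells. CCND3 (chromosome 6, 41.90 to 42.02 Mb) also had a lowest and median ratio of 0, and its highest was 0.81. All 3 genes therefore lay at 0 in most cells.

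The neighbourhoods of the D-type cyclin genes were as low as the genes. The bins within 1 Mb had a mean frequency of 0.774% around CCND1, 2.50% around CCND2 and 1.55% around CCND3, and none of these 60 bins exceeded 7.14%. Their chromosomes averaged 30.3%, 25.4% and 32.9%. The nearest bin reaching 50% was 9900 kb away for CCND1, 10700 kb for CCND2 and 5700 kb for CCND3. An unbroken run of bins under 20% around the gene spanned 3.7 Mb at CCND1, 11.5 Mb at CCND2 and 5.0 Mb at CCND3. That of CCND2 began at the first bin of its chromosome. Runs were also ended by bins without signal, so their lengths can be cut short. The next coding genes beside CCND2 in RefSeq (GRCh38.p14, used for names only) are PARP11 and TIGAR, those beside CCND3 are BYSL and TAF8, and MYEOV and LTO1 are among those beside CCND1.

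The 3 D-type cyclins could not be ordered. CCND2 was in contact in 2 cells in which CCND1 and CCND3 were not, a difference of 2.38 percentage points within overlapping intervals. In CCND3 the averaging over 2 bins mattered: its bins taken singly were in contact in 2 and 3 cells (2.38 and 3.57%), and with contact in any bin enough it had 5.95%. Of the CCND2 contacts, that in cell 48 rested on 18 and 27 reads in the paired columns, and that in cell 1 on 3 and 3. Reads of paired columns may stem from the same fragments. Cells 69 and 79, in which chromosome 12 held under 5% of the reads due, were at 0 for CCND2, and without them it had 2.44%.

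CDK4 and CDK6, the partner kinases of the D-type cyclins, were as seldom at the lamina but stood close to regions that often were. At CDK4 (chromosome 12, 58.14 to 58.15 Mb) the lowest and median ratio was 0 and the highest 2.92, and 70 cells had no read. At CDK6 (chromosome 7, 92.23 to 92.47 Mb) the lowest and median ratio was 0 and the highest 1.32, and 52 cells had no read over its 3 bins. Each was in contact in 2 of 84 cells, in different ones. The difference between the kinases was thus 0 points, with an interval of 0.290 to 8.34% for each.

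Their surroundings differed from those of the D-type cyclins. CDK4 lay near the end of a run of bins under 20% that spanned 11.2 Mb, from 47200001 to 58400000. The 10 bins before the gene averaged 2.62%. After it the frequency went from 2.38% in the next bin to 16.7%, 53.6% and 64.3% over the following 300 kb. This is the edge of a stretch of 1.5 Mb at 50% or more (58400001 to 59900000), with a mean of 61.0%. In 54 cells at least 50% of the bins of that stretch were in contact, and CDK4 was in contact in 1 of them.

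CDK6 sat in a gap between contacted stretches. The run of bins under 20% around it measured only 1.2 Mb, from 91500001 to 92700000, with a mean of 5.46%. Bins at 50% or more began 800 kb before and 400 kb after the gene, in stretches with means of 55.6 and 58.3%. All 20 bins in its flanks had a higher frequency than the gene, and their mean was 29.7%, close to the chromosome's 28.7%. The next coding genes in RefSeq are FAM133B before it and SAMD9 and SAMD9L after it.

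Nearness to such stretches usually goes with more contact. Over all bins with 200 kb between them and the nearest bin at 50% or more, as at CDK4, the median frequency was 14.3% and 23.2% of bins were under 5%. At 400 kb, as at CDK6, the median was 9.52% and 35.0% of bins were under 5%. Both genes were thus below the median for their distance.

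The few contacts of CDK4 and CDK6 came from cells below the median depth of 63700 reads. Those of CDK6 were in cell 19, the shallowest cell with 7134 reads in its deeper column, and in cell 56, with 1 read in each column of each cell. Those of CDK4 were in cell 54, with 1 and 2 reads, and in cell 68, with 2 and 2 reads, at depths of 14065 and 30532. Among the 42 cells with the larger share of bins above 0, neither gene was in contact in any. Without cells 48, 54 and 56, whose reads stood apart in an earlier analysis, CDK4, CDK6 and CCND2 had 1.23% each. Cells 69 and 79 were at 0 for both genes and had hardly any reads on chromosomes 7 and 12. Without them each gene had 2.44%.

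CCNE1, which encodes cyclin E1, lies on chromosome 19 (30.30 to 30.32 Mb), a chromosome that averaged 4.89%. Its ratio was 0 in the lowest and median cell and 1.26 in the highest, and 67 cells had no read. Contact was seen in 1 cell, cell 47, on 2 and 3 reads (1.19%, interval 0.0301 to 6.46%). The flanks averaged 6.19%, with up to 15.5% at 1 Mb after the gene, and no bin of chromosome 19 reached 50%. So CCNE1 and its chromosome were both low, and 53.9% of the chromosome's bins were above the gene.

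**Figure D3:**
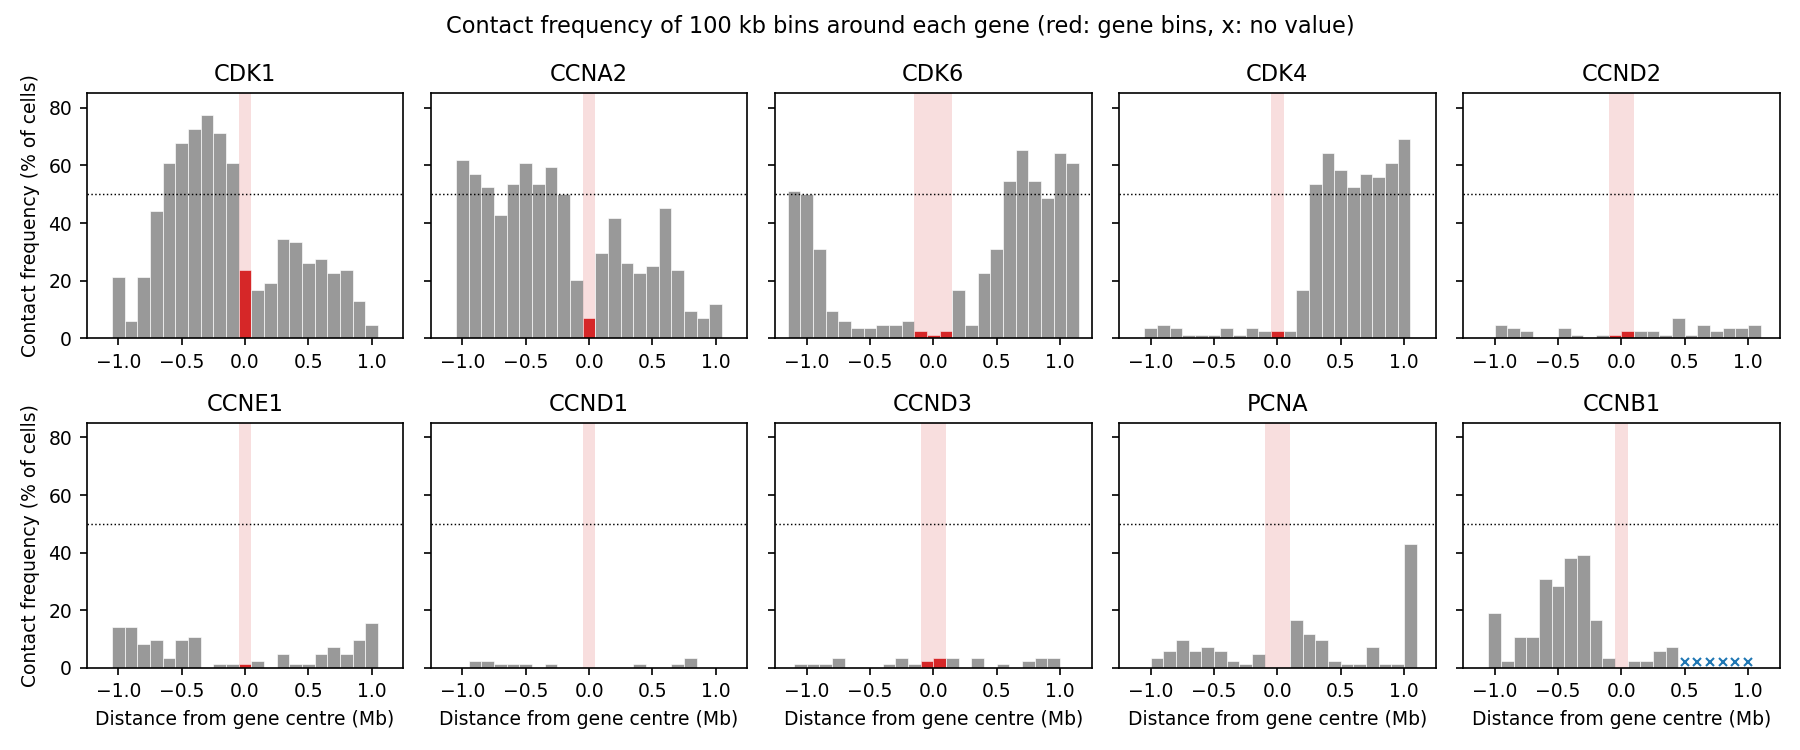
Contact frequency (percent of 84 cells) of the 100 kb bins within 1 Mb of each gene, against the distance from the centre of the gene's bins in Mb; gene bins are red, the dotted line is 50% and crosses mark bins without signal. CDK1 and CCNA2 have bins above 50% before them, CDK4 has them after it and CDK6 on both sides, and the flanks of the other 6 genes stay at or below 42.9%.

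CCNA2, which encodes cyclin A2, was a low point in a region often at the lamina. At its bin (chromosome 4, 122700001 to 122800000) the lowest and median ratio was 0, the highest was 6.66, and 53 of 84 cells had no read. Contact was seen in 6 cells (7.14%). The 10 bins before the gene averaged 51.2% and the 10 after it 24.3%. Of these 20 bins 19 were higher than the gene and the other had the same value.

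The dip at CCNA2 was narrow. From 500 kb before the gene the frequencies ran 60.7, 53.6, 59.5, 50.0 and 20.2%, then 7.14% at the gene, and 29.8 and 41.7% in the next 2 bins. Over all bins 100 kb from a bin at 50% or more, the median was 22.6%, the lower quartile 9.52%, and 13.5% of bins were under 5%. CCNA2 was therefore below the lower quartile for its distance. The stretch before it, from 122100001 to 122600000, had at least 50% of its bins in contact in 48 cells, and CCNA2 was in contact in 5 of these. The next coding genes in RefSeq are EXOSC9 and BBS7.

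Where CCNA2 did touch the lamina, the bins around it mostly did too. The contact was part of an unbroken run of 400 to 2400 kb in 5 of the 6 cells. The exception, cell 53, had a run of 100 kb and rested on 1 read in a single column. The 10 bins after the gene averaged 60.0% in contact in these 6 cells against 21.5% in the other 78, and each was higher in the 6. The 10 bins before it averaged 70.0% against 49.7%, and 8 of them were higher in the 6. The frequency of CCNA2 was 16.7% when 1 more bin was averaged on each side, and 3.57% at a limit of 2.

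CDK1, the kinase gene of mitosis, was the member most often at the lamina. It lies in the bin 62500001 to 62600000 of chromosome 10. The ratio was 0 in the lowest cell, 0.26 in the median cell and 9.37 in the highest, and 30 cells had no read. Contact was seen in 20 of 84 cells, or 23.8% (interval 15.2 to 34.3%). That is near the average of its chromosome, 24.2%, and 54.5% of all bins were lower and 44.9% higher. CDK1 was the only gene of the 10 with a frequency from 20 to 80%, a class that holds 47.4% of bins.

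CDK1 was at the border of a stretch often at the lamina. The bins before the gene rose from 44.0% at 700 kb to 77.4% at 300 kb and stood at 71.4 and 60.7% just before it. After the gene they were 16.7, 19.0, 34.5 and 33.3%, and by 1 Mb 4.76%. The next coding gene before CDK1 in RefSeq is ANK3, a long gene for an ankyrin of the membrane skeleton, and RHOBTB1 follows it. Bins under 50% that adjoin a bin at 50% or more had a median of 40.5% and a lower quartile of 30.7%. CDK1 was below that quartile. The set also takes in bins with such a neighbour on both sides. CDK1 had one on 1 side only, the nearest after it being 3300 kb away.

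**Figure D4:**
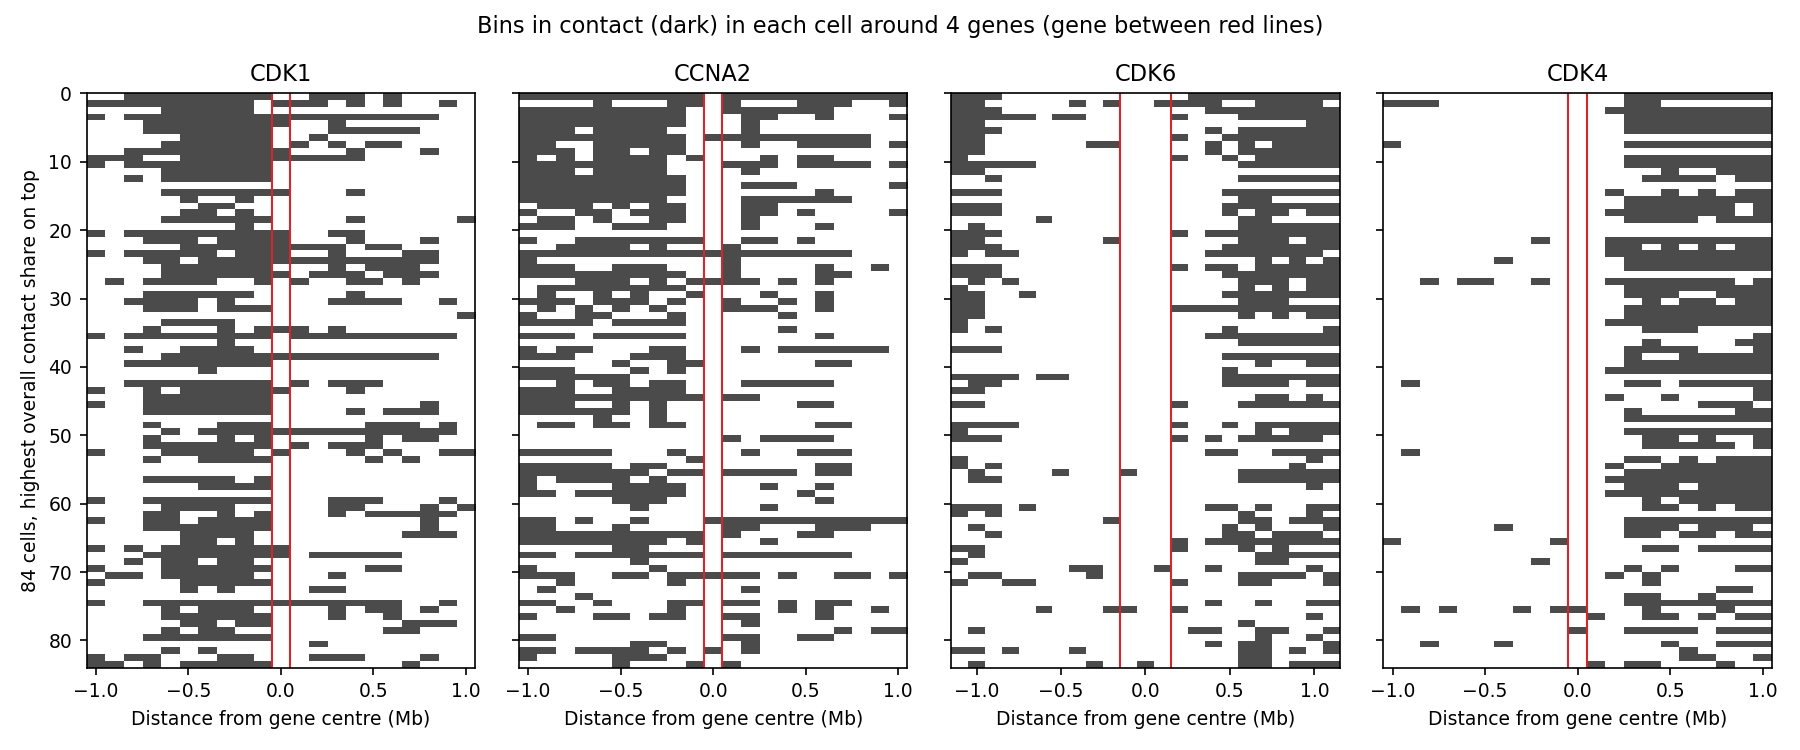
Bins in contact (dark) in each of 84 cells, 1 row per cell with the highest overall contact share on top, against distance from the centre of the gene's bins in Mb; the gene lies between the red lines. Of the 20 cells with CDK1 in contact, 18 also have contact in the bin just before it and 9 in the one just after. The column of CDK6 and that of CDK4 are nearly empty beside contacted stretches.

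In single cells, contact of CDK1 went with contact of the stretch before it. In 19 of the 20 cells with CDK1 in contact, at least 50% of the bins from 61900001 to 62500000 were in contact, against 45 of the other 64. The stretch was thus often in contact without CDK1, and CDK1 was without it in 1 cell. All 20 flanking bins were in contact in a larger share of the 20 cells than of the 64. The 10 bins before the gene averaged 68.5% against 44.7%, and the 10 after it 41.5% against 16.1%. Among the latter, the widest split was 75.0% against 20.3% at 400 kb and the narrowest 5.00% against 4.69% at 1 Mb. Contact of the gene was part of a run of 100 to 1700 kb, with a median of 800 kb.

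The level at CDK1 depended on how contact was called. It was 35.7% at a limit of 0.5, 10.7% at 1.5 and 7.14% at 2, and 47.6% when the bin on each side was averaged in. The contacts rested on 2 to 49 reads in both columns together, and 19 of the 20 on at least 5. With the paired columns called singly, each gave contact in 19 cells. In 15 cells both did, and in 8 cells the columns differed. Cell 22, the highest at 9.37, had 3 and 4 reads on a total of 9913 in its deeper column. The cells with contact had a median overall contact share of 32.1%, against a mean of 27.8% ± 6.55 (SD, n = 84 cells). Cell 69 had almost no reads on chromosome 10, and without it CDK1 had 24.1%.

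Beyond its flanks, the contact calls most like those of CDK1 lay on other chromosomes. The highest of 24757 correlations over the 84 cells was with 7:71000001 to 71100000 (r = 0.53, 10 cells in common), followed by X:73900001 to 74000000 (r = 0.48). On chromosome 10 it was 117400001 to 117500000, 54.9 Mb away (r = 0.43). These are the highest of many values from cells that share depth and overall contact share, and they are given as a description.

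CCNB1, the cyclin partner of CDK1 in mitosis, was not in contact in any cell. At its bin (chromosome 5, 68400001 to 68500000) the lowest and median ratio was 0 and the highest 0.77, and 71 cells had no read. Cell 79, in which chromosome 5 held 3.23% of the reads due, was at 0. Without it CCNB1 had no contact in the 83 cells left. Its chromosome averaged 33.4%, and 96.0% of the chromosome's bins were higher. The 10 bins before it averaged 20.0% and reached 39.3% at 300 kb. Of the 10 bins after it, 4 had signal, with a mean of 4.46%. All 14 flanking bins with signal were above the gene. The next coding genes in RefSeq are SLC30A5 and CENPH, which encodes a kinetochore protein.

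CDK1 and CCNB1, whose products work as 1 complex, thus had 20 and 0 cells in contact, in intervals that did not overlap. CDK1 and CCNA2 were both in contact in 1 cell, CDK1 alone in 19 and CCNA2 alone in 5 (correlation of calls -0.05). No cell shared contact of the kinase genes CDK1, CDK4 and CDK6 in any pair. The correlation of calls was -0.09 for CDK1 with CDK4 and with CDK6, and -0.02 between CDK4 and CDK6. CDK4 and CDK6 had only 2 contact cells each, so the lack of shared cells is no result about the kinases.

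The promoters of these 3 genes are shown because Dam marks only GATC and because the CCAAT box and the TTTGAA element are known parts of promoters active late in the cycle. The sequences are the 250 bases before the start site in RefSeq, 5′ to 3′ on the gene's strand, build GRCh38.p14, a different build from that of the bins. Capitals mark GATC, CCAAT or its reverse ATTGG, and TTTGAA or its reverse TTCAAA. The CDK1 window is chr10:60778228-60778477 (plus strand), the later of 2 listed starts, that of CCNA2 chr4:121823884-121824133 (minus strand) and that of CCNB1 chr5:69166900-69167149 (plus strand).
CDK1: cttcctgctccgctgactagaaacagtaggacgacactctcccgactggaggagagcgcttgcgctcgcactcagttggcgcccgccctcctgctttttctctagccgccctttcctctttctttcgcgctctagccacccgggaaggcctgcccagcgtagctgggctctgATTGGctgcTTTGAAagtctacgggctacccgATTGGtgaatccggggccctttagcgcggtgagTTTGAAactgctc
CCNA2: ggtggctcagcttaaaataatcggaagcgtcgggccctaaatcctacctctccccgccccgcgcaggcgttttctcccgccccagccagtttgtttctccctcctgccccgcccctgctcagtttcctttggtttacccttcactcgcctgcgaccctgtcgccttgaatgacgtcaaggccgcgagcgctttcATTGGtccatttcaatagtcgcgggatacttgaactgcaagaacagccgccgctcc
CCNB1: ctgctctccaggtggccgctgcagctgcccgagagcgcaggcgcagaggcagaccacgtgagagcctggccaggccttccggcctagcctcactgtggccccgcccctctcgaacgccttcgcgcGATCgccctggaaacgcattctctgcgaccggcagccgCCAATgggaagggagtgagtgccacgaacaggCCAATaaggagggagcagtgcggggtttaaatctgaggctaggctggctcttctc

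The CDK1 window held 2 CCAAT boxes, 2 TTTGAA elements and no GATC. The window of the earlier CDK1 start held 1 CCAAT box, 1 TTTGAA element and no GATC. That of CCNA2 held 1 CCAAT box and neither other motif, and that of CCNB1 held 2 CCAAT boxes and 1 GATC. Only exact TTTGAA and its reverse were searched. Variant forms of the element were not, so its lack at CCNA2 and CCNB1 holds for that exact sequence only. Of 35116 RefSeq promoter windows of this length, 35.8% held GATC, 32.0% CCAAT and 13.3% TTTGAA on either strand, with no overlap between these letters required or barred. Windows were matched for 8 of the 10 genes. At least 1 window had GATC in 4 of them (CCND3, CCNB1, CDK4 and PCNA), CCAAT in 5 and TTTGAA in CDK1. These counts take any of the windows listed for a gene, 13 in all, whereas the shares above are per window.

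PCNA, the replication clamp gene, was not in contact in any cell. Over its 2 bins (chromosome 20, 5000001 to 5200000) the mean ratio was 0 in the lowest and median cell and 0.57 in the highest. That is the lowest maximum of the 10 genes, but it is an average. Its bins taken singly reached 0.97 and 0.83, above the 0.77 of the single bin of CCNB1. Reads were nevertheless present in 30 cells. The flanks averaged 7.08%, with 16.7% in the next bin after the gene and 42.9% in the last, at 1 Mb after it. A stretch of 0.4 Mb at 50% or more begins just beyond that bin, at 6200001. Its chromosome averaged 16.4%, and the run of bins under 20% around it was 6.1 Mb long, from the first bin of the chromosome. The next coding genes in RefSeq are TMEM230 and CDS2. Cells 69 and 79, with few reads on chromosome 20, were at 0.03 and 0.

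Set against their flanks, 9 of the 10 genes had a lower frequency in their own bins than the mean within 1 Mb, as did 51.7% of all bins, and CCND3 was higher by 1.43 points. With the gene called on the mean of its bins, all 10 were lower than their flanks. The median difference was then 9.76 points. It was 30.6 points at CCNA2, 27.3 at CDK6, 23.5 at CDK4, 15.6 at CCNB1 and 12.4 at CDK1, and 0.119 to 7.08 points at the other 5. This order depended on the width of the flanks. With 0.5 Mb CDK6 had 12.9 points and CDK1 24.2, and with 2 Mb CDK6 had 38.8, CCNA2 29.1 and PCNA 17.9. CCND2 was at -0.36 points with 0.5 Mb and at 0 with 2 Mb.

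Per cell, few of the 10 genes were in contact. Marks were gathered over the 15 h of induction, so genes in contact in the same cell need not have touched the lamina at the same time. None was in contact in 53 cells, 1 in 29 cells and 2 in 2 cells, with a mean of 0.393 ± 0.538 genes (SD, n = 84 cells). The cells with 2 were cell 13, with CCNA2 and CDK1, and cell 48, with CCND2 and CDK1. Overall contact share averaged 27.5% in cells with none, 27.7% in cells with 1 and 35.8% in the 2 cells with 2.

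Other genes of the cell cycle and of replication, such as inhibitors, E2F factors, origin licensing and fork proteins, could be placed by chromosome only. Of 66 listed, 58 lie on chromosomes taken here. Their chromosomes averaged 25.1% in contact, against 24.7% for 18030 coding genes and 25.9% for the 10 members. Of the 10 members, 9 had an own frequency at least 3 points below the mean of their chromosome, as did 53.9% of all bins.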

How the data were processed

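Per the submitters' processing notes, cutadapt, Bowtie2 2.1.0 and the build hg19 were used on the DamID reads. The authors deposited a table of 30376 bins (100 kb each) by 168 columns, and each cell of it is a ratio, observed reads over expected. The making of the expectation and the treatment of duplicates are not stated in the sources used here. Bins without a value (3792) or at 0 in every column (170) were left out. Chromosome 8 and part of chromosome 15 have no values. Reads were worked back as whole multiples of a step per bin and column, which gave whole numbers, to within 0.02, for 99.9999% of the nonzero values. The method was tested on simulated data. The deeper column of a cell held 7134 to 418937 reads, with a median of 63700. Paired columns were averaged.

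Members, lists, alternatives and cells left out were chosen with earlier results of these data known. All 10 members are named; for members at 20 to 80%, the most correlated bin outside 1 Mb flanks is named, and neighbouring coding genes come from RefSeq. Intervals are exact Clopper-Pearson at 95%. Chromosomes counted as nearly without reads had under 5% of at least 300 expected reads. Python 3.11.15, numpy 2.4.6, pandas 2.3.3, scipy 1.17.1 and matplotlib 3.10.9 were used.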

Additional observations from a re-analysis of the deposited data

How the results depend on the processing

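Of 238 values recomputed under 16 alternatives for the frequencies, differences and counts above, 214 stayed within the interval of the gene, within 1 SD over cells, or within 1.5 times for counts. Single flank differences brought the total to 378 values, of which 339 did so. No value beyond its error changed sign. The values that moved follow, and except where fewer cells or more bins enter by construction, the cause was not tested.

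At a limit of 0.5, CCND1 had 5.95%, CCND3 7.14%, CCNB1 4.76% and CDK1 35.7%, and 4 members in place of 8 were under 5%. At 1.5, CCND2, CCNE1 and CDK6 had 0 and CDK1 10.7%. At 2, CCND2, CCNE1 and CDK6 had 0 and CDK1 7.14%. In cells 1 to 29, CCNE1 and CDK4 had 0 and CDK1 34.5%. In the 42 deeper cells, CDK4 and CDK6 had 0. With any bin enough, CCND3 had 5.95%, and its difference from CCND1 was 5.95 points. With 1 more bin on each side, CCND2 and CCNE1 had 0, CCNA2 16.7% and CDK1 47.6%. Of single flank differences, 15 moved. CDK6 had 33.8 points at a limit of 0.5, 17.3 at 2, 35.2 in deeper cells, and 12.9 and 38.8 with flanks of 0.5 and 2 Mb. CCNB1 had 9.78 at 1.5, 6.55 at 2, 20.4 in deeper cells and 20.6 with 2 Mb. CCNA2 had 22.3 at 1.5 and 16.1 at 2, CDK4 15.5 at 2, CCNE1 11.4 in cells 1 to 29, CDK1 24.2 with 0.5 Mb and PCNA 17.9 with 2 Mb. For flanks against gene the median lay between 4.70 and 15.3 points at the extremes. No comparison between conditions was possible because all samples form 1 group. In shallow cells an absent contact and a missed one cannot be told apart, and a contact can rest on 1 read.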
